A study of Mus musculus with 6 samples.

Results

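The 4 Notch receptor genes, the gene of their nuclear partner and 5 genes that Notch signaling is known to switch on or that feed back on it were followed in hnRNP L deficient hematopoietic progenitors. The members were listed by name (*Notch1*, *Notch2*, *Notch3*, *Notch4*, *Rbpj*, *Hes1*, *Hey1*, *Nrarp*, *Dtx1* and *Dtx4*), not by their values, and make 10 of the 38293 genes counted. Of these, 8 had enough reads to be tested, and *Hey1* and *Dtx1* did not. hnRNP L is an RNA-binding protein, and the study asked how its loss in blood cells of the embryo changes mRNA levels and splicing. RNA of fetal liver (FL) cells was sequenced from 3 wt and 3 hnRNP L deficient embryos of the C57BL/6 strain at embryonic day 14.5, with each library made from a single embryo. The deficient embryos were VavCre+ hnRNP L fl/fl, in which Vav regulatory sequences drive Cre, so that deletion is limited to blood cells and any other cells with Vav activity. The labels call the controls wild-type and give neither Cre nor floxed alleles for them, whereas a figure legend of the paper marks the sequenced wt samples as L fl/fl. According to the methods the RNA came from sorted Lin- cKit+ FL cells, a fraction that holds hematopoietic stem and progenitor cells, whereas the tissue field of the labels reads whole embryo.

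Notch receptors are membrane proteins that are cut when a ligand on a neighboring cell binds them. ADAM10 and then gamma-secretase release the intracellular domain, which enters the nucleus, joins RBPJ and a Mastermind coactivator, and turns on genes such as *Hes1*, *Hey1* and *Nrarp*. In blood development NOTCH1 is known for its role in the emergence of hematopoietic stem cells (HSCs) and in T cell commitment, and NOTCH2 for its role in marginal zone B cells.

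Between 55952160 and 76157226 reads per library fell on genes, so that 3 reads correspond to 0.0402 to 0.0540 CPM (counts per 1000000 reads of the TMM-normalized library size). *Hnrnpl* itself went from 528 to 552 CPM in wt libraries down to 242 to 288 CPM in deficient libraries. Values of single libraries are given in the order of replicates 1, 2 and 3 throughout. Over all 14396 genes tested with edgeR's quasi-likelihood test, 1341 rose and 1418 fell at a Benjamini-Hochberg adjusted p under 0.05, or 1066 and 1751 when libraries were scaled by their totals alone. wt replicate 2 stood apart from the other libraries. Its 8 markers of granulocyte and monocyte precursors summed to 8261 CPM, against 591 and 1515 CPM in wt replicates 1 and 3 and 244 to 827 CPM in the deficient libraries. The 8 markers of stem and progenitor cells, *Kit* among them, were all detected and summed to 578 to 854 CPM in wt and 387 to 424 CPM in deficient libraries. The 8 hepatocyte markers summed to 119 to 243 CPM and 25.6 to 77.0 CPM. In bulk RNA fewer cells of a type and less RNA per cell cannot be told apart, and the part of these shifts in the results below was not tested.

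The stretches of DNA just before the annotated starts of the receptor genes are shown because *Notch1* and *Notch4* fell while *Notch3* rose, and that of *Rbpj* because it holds the motif of its own protein. They were taken from RefSeq's promoter table for GRCm38.p6, on the strand of the gene and without annotated exons, at chr2:26503825-26504072 for *Notch1* (minus strand, inside the annotated gene span), chr3:98013288-98013526 for *Notch2* (plus strand), chr17:32166891-32167140 for *Notch3* (minus strand), chr17:34564045-34564267 for *Notch4* (plus strand) and chr5:53590096-53590213 for *Rbpj* (plus strand, inside the annotated gene span). Capitals mark the GC box GGGCGG and the RBPJ core motif TGGGAA, each searched on both strands, and overlapping matches are joined.
Notch1: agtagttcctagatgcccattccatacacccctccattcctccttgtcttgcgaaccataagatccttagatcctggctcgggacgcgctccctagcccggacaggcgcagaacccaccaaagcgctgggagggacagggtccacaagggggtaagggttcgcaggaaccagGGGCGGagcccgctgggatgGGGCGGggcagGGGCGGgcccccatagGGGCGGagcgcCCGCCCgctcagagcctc
Notch2: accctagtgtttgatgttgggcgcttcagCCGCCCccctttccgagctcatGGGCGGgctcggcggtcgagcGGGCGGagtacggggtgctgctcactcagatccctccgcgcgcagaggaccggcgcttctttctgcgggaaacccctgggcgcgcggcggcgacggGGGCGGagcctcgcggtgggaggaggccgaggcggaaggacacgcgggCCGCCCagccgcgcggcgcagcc
Notch3: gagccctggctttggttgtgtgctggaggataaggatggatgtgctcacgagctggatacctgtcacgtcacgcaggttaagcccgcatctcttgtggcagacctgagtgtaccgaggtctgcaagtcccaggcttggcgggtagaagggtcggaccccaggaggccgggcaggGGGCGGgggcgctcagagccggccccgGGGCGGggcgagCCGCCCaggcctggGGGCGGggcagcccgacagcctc
Notch4: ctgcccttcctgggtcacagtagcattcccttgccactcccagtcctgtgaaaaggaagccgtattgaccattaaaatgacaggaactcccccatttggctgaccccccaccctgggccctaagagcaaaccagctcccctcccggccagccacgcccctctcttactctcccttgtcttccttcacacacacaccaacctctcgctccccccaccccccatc
Rbpj: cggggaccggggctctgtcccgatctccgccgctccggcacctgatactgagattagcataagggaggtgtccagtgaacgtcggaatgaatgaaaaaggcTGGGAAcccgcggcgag

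GC boxes were frequent before 3 of the receptor genes and absent before *Notch4*. The stretches of *Notch1* and *Notch2* held 5 each and that of *Notch3* held 4. In windows of 250 bases before the start, 32.7% of the 32851 RefSeq promoters held a GC box and 21.6% held the RBPJ core. Among the members, 7 had a window in the table, of which 5 held a GC box and 1, that of *Rbpj*, held the core, once in the stretch shown at 149 bases before the start. A match of letters says nothing on binding, and none of the 4 receptor windows held TGGGAA on either strand. *Hes1*, *Hey1* and *Dtx4* had no entry in the table.

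Of the 8 members tested, 3 passed edgeR's quasi-likelihood test at an adjusted p under 0.05, and all of them were receptors: *Notch1* and *Notch4* fell, and *Notch3* rose. *Notch2*, the receptor with the highest level, *Rbpj* and the tested target genes did not pass. For comparison, 19.2% of all genes tested passed, 9.32% upward and 9.85% downward. The median log2 fold change of the 8 members was -0.28, beside -0.03 over all genes. In 4 of the 8 the libraries of the genotypes did not overlap (*Notch1* and *Notch4* lower, *Notch3* and *Hes1* higher in all deficient libraries), as in 45.5% of all genes tested, 22.7% in each direction. The plot of the members by library shows these levels.

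**Figure D1:**
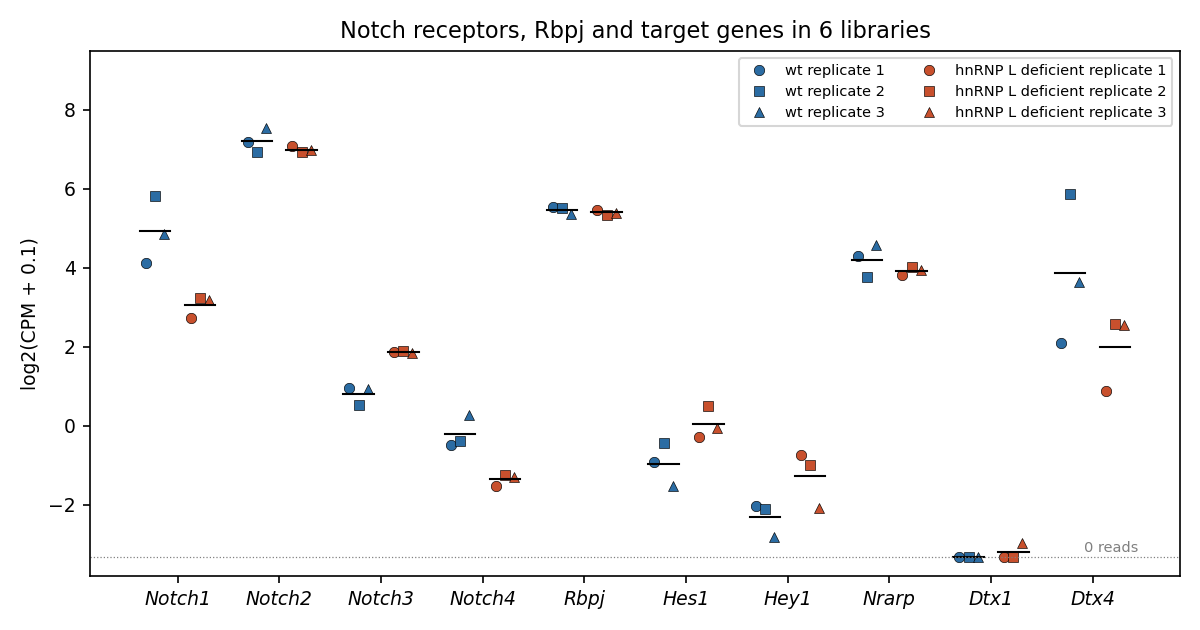
Level of each member in the 6 libraries as log2(CPM + 0.1), with wt in blue, hnRNP L deficient in red, a symbol per replicate number and a black bar at the mean of the log2 values of each genotype. All deficient libraries lie below all wt libraries for *Notch1* and *Notch4* and above them for *Notch3* and *Hes1*, and wt replicate 2 lies far above the other wt libraries for *Dtx4*.

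*Notch1* (ENSMUSG00000026923, chr2:26457903-26516663 of GRCm38, minus strand) encodes the receptor that drives T cell commitment. Its levels were 17.2, 56.4 and 29.1 CPM in wt and 6.57, 9.38 and 8.95 CPM in deficient libraries. All deficient libraries were below all wt libraries, and the wt libraries differed more among themselves than the deficient ones. The means were 34.2 ± 20.1 CPM (SD, n = 3) and 8.30 ± 1.51 CPM (SD, n = 3), for a difference of -2.04 on the log2 scale (standard error, SE, 0.44, edgeR adjusted p = 0.0287). An exact permutation test (two-sided, on log2(CPM + 0.1)) gave p = 0.1, the smallest that 3 against 3 libraries allow. wt replicates 2, 3 and 1, in this order of *Notch1*, had the same order in the summed granulocyte and monocyte markers. The sums of mast cell, megakaryocyte, T and NK cell, B cell, endothelial and mesenchymal markers had this order too. Those of stem and progenitor, erythroid and hepatocyte markers did not. Without *Kit*, the most abundant of its list, the other 7 stem and progenitor markers had this order as well. They summed to 155, 336 and 199 CPM in wt and 55.9, 64.6 and 56.7 CPM in deficient libraries. The mesenchymal sum without *Pdgfrb*, the most abundant of its list, no longer had this order (3.53, 3.69 and 3.72 CPM in wt). Without wt replicate 2 the log2 fold change of *Notch1* was -1.48 (edgeR adjusted p = 0.00878).

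*Notch4* (ENSMUSG00000015468, chr17:34564268-34588503, plus strand), a receptor best known from endothelial cells, was rare. It had 0.612, 0.667 and 1.10 CPM in wt and 0.249, 0.321 and 0.308 CPM in deficient libraries, from 16 to 80 reads each. The genotypes did not overlap, and the log2 fold change came to -1.44 with an SE of 0.38 (edgeR adjusted p = 0.0414). Of the 8 endothelial markers, all tested, 2 fell (*Pecam1* and *Tie1*, with log2 fold changes of -2.07 and -1.23) and none rose, and their sum was 93.5 to 145 CPM in wt and 94.8 to 98.5 CPM in deficient libraries. This sum was carried by *Egfl7*, which went the other way. It had 59.6, 65.2 and 68.8 CPM in wt and 77.1, 78.5 and 75.7 CPM in deficient libraries (edgeR adjusted p = 0.0525). The other 7 markers, all with log2 fold changes below 0, summed to 33.9, 79.6 and 44.2 CPM in wt and 21.4, 19.4 and 19.0 CPM in deficient libraries. These sums did not overlap between genotypes, ran in the direction of *Notch4* and were mostly *Pecam1* and *Tie1*. Among the wt libraries, however, the sum was highest in replicate 2, whereas *Notch4* was highest in replicate 3. Singly, *Cdh5*, *Kdr* and *Lyve1* overlapped between genotypes. *Cdh5* had 0.990, 0.384 and 1.29 CPM in wt and 0.202, 0.275 and 0.482 CPM in deficient libraries. The part of endothelial cells in the fall of *Notch4* was not tested.

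*Notch3* (ENSMUSG00000038146, chr17:32120820-32166852, minus strand), a receptor known from vascular smooth muscle and from developing T cells, was the member that rose. It had 1.84, 1.35 and 1.79 CPM in wt and 3.57, 3.63 and 3.51 CPM in deficient libraries, from 81 to 262 reads each. The deficient libraries were all above the wt libraries and lay close together. The means were 1.66 ± 0.268 CPM (SD, n = 3) and 3.57 ± 0.0583 CPM (SD, n = 3), for a difference of 1.10 on the log2 scale (SE 0.21, edgeR adjusted p = 0.0209). Of the 8 mesenchymal and mural markers, 5 were tested, 1 rose and 1 fell, and their sum was 10.8 to 19.4 CPM in wt and 7.33 to 9.64 CPM in deficient libraries. Without *Pdgfrb*, the most abundant of them, the other 7 summed to 3.53, 3.69 and 3.72 CPM in wt and 4.80, 7.08 and 6.94 CPM in deficient libraries, higher in all deficient libraries, as *Notch3* was. Most of this was *Col1a2*, which rose (log2 fold change 1.13), while *Pdgfrb* fell (-2.33) and the smooth muscle genes *Acta2* and *Tagln* had too few reads to be tested. The other tested markers of this list, *Col1a1*, *Col3a1* and *Cxcl12*, overlapped between genotypes and did not pass (log2 fold changes 0.002, 0.30 and -0.22). The part of mesenchymal and mural cells in the rise of *Notch3* was not tested.

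*Notch2* (ENSMUSG00000027878, chr3:98013527-98150361, plus strand) had 146, 123 and 185 CPM in wt and 136, 122 and 126 CPM in deficient libraries. The genotypes overlapped, since wt replicate 2 was as low as the deficient libraries. The log2 fold change of -0.24 (SE 0.15) did not pass the test (edgeR adjusted p = 0.26). Without wt replicate 2 it was -0.37 and passed (edgeR adjusted p = 0.0366).

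The calls of the 3 receptors depended on which libraries were included, and their directions did not. Without wt replicate 1 or wt replicate 2 all 3 passed. Without wt replicate 3, or without hnRNP L deficient replicate 1, 2 or 3, none of the 10 members passed edgeR's test, and only 5, 17, 8 and 7 genes passed in all. In these 4 fits the edgeR adjusted p was 0.0656 to 0.122 for *Notch1*, 0.0564 to 0.109 for *Notch3* and 0.0947 to 0.152 for *Notch4*. Over the 6 fits that left out a library each, the log2 fold change ranged from -2.36 to -1.48 for *Notch1*, from 0.98 to 1.19 for *Notch3* and from -1.59 to -1.12 for *Notch4*. wt replicate 1 and hnRNP L deficient replicate 1 have embryo numbers with the same first part, and so do hnRNP L deficient replicates 2 and 3, and the labels do not state what it means. Whether embryos with a shared first part are independent samples was not tested. Between these libraries *Notch1* was 17.2 against 6.57 CPM, *Notch3* 1.84 against 3.57 CPM and *Notch4* 0.612 against 0.249 CPM.

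**Figure D2:**
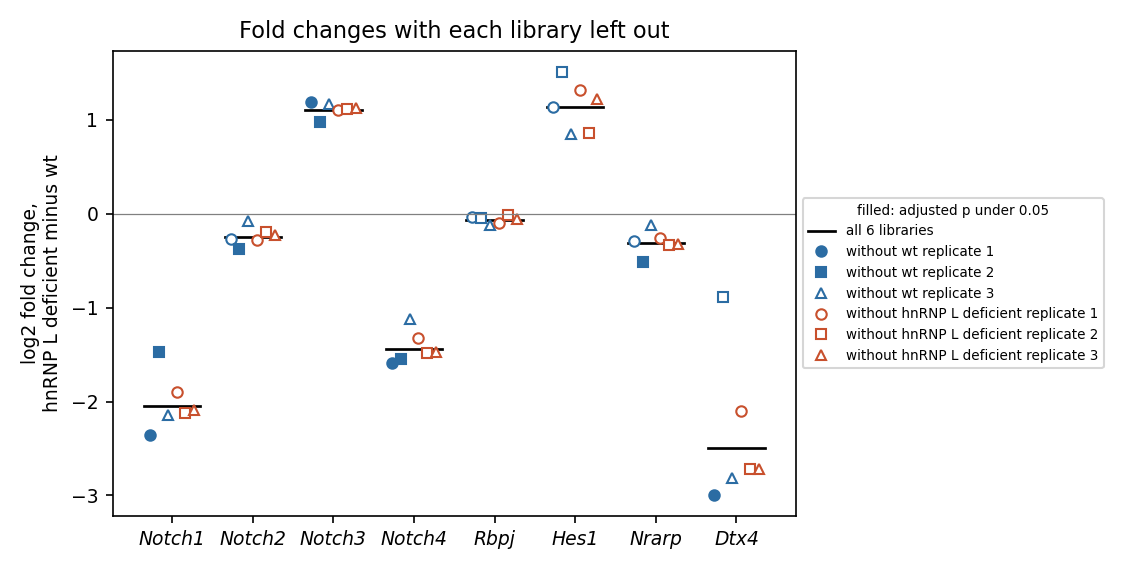
Log2 fold change (hnRNP L deficient minus wt) of the 8 tested members with all 6 libraries (black bars) and after leaving out each library, where blue symbols stand for a wt and red symbols for a deficient library left out and filled symbols for an edgeR adjusted p under 0.05. *Notch1*, *Notch3* and *Notch4* keep their side of 0 in every fit and are filled only without wt replicate 1 or 2, and *Dtx4* moves to -0.89 without wt replicate 2.

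Levels of different genes were set side by side as CPM per kb of annotated exons, the union of all exons of a gene in GENCODE. This length can hold exons not used here, which lowers the level per kb, so that genes compare only roughly. Of the exon pieces counted below, 44 of 51 had reads for *Notch1* and 34 of 55 for *Notch4*, but all for *Notch2* and *Notch3*. *Notch2* made up most of the receptor mRNA in every library. Its share of the summed CPM per kb of the 4 receptors was 90.0%, 73.0% and 87.7% in wt and 93.1%, 90.8% and 91.4% in deficient libraries. The share of *Notch1* was 8.0%, 25.4% and 10.4% in wt and 3.42%, 5.28% and 4.92% in deficient libraries. All 3 deficient libraries thus had a lower share of *Notch1* than any wt library. *Notch3* took 1.5%, 1.07% and 1.13% in wt and 3.27%, 3.59% and 3.40% in deficient libraries. *Notch4* made 0.503%, 0.530% and 0.698% in wt and 0.228%, 0.320% and 0.299% in deficient libraries.

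**Figure D3:**
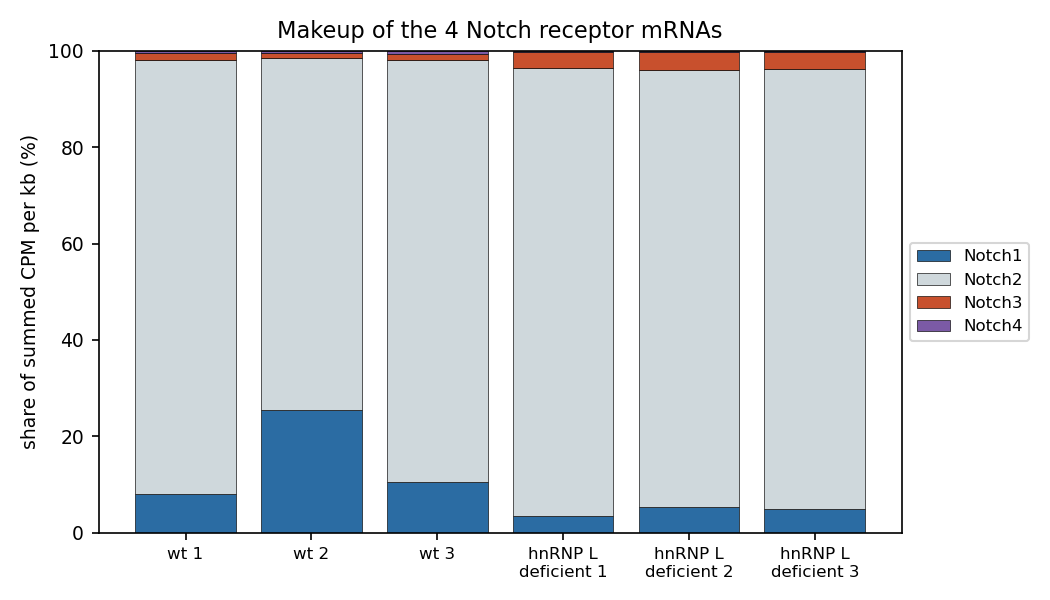
Share of each receptor in the summed CPM per kb of the 4 Notch receptor genes (%), with a bar for each library. *Notch2* takes 73.0% to 93.1% of each bar, and the part of *Notch1* is 8.0% to 25.4% in wt and 3.42% to 5.28% in hnRNP L deficient libraries.

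A ratio of 2 genes within a library does not depend on how libraries are scaled. *Notch2* exceeded *Notch1* per kb 11.3-fold, 2.88-fold and 8.41-fold in wt and 27.2-fold, 17.2-fold and 18.6-fold in deficient libraries, with no overlap between the genotypes. On the log2 scale the ratio of *Notch1* to *Notch2* was -2.70 ± 1.04 (SD, n = 3) in wt and -4.36 ± 0.36 (SD, n = 3) in deficient libraries, a difference of -1.67. When each library was left out this difference was -2.06 to -1.08. In deficient libraries *Notch1* came close to *Notch3* in level per kb, with 0.462, 0.659 and 0.629 CPM per kb against 0.442, 0.448 and 0.434 CPM per kb. In wt libraries *Notch1* had 1.21, 3.96 and 2.04 CPM per kb and *Notch3* 0.227, 0.167 and 0.221 CPM per kb.

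Among all members the order of the wt means was *Notch2* (14.0 CPM per kb), *Nrarp* (7.32), *Dtx4* (4.79), *Rbpj* (3.47), *Notch1* (2.4), *Hes1* (0.215), *Notch3* (0.205), *Notch4* (0.0984), *Hey1* (0.0325) and *Dtx1* (0). The wt libraries of *Dtx4* overlapped those of its neighbors *Nrarp* and *Rbpj* in this order, and so did *Rbpj* with *Notch1* and *Hes1* with *Notch3*. In deficient libraries the order was *Notch2* (11.9 CPM per kb), *Nrarp* (5.88), *Rbpj* (3.31), *Dtx4* (0.849), *Notch1* (0.583), *Hes1* (0.473), *Notch3* (0.441), *Hey1* (0.105), *Notch4* (0.0363) and *Dtx1* (0.00169). Here *Dtx4*, *Notch1*, *Hes1* and *Notch3* overlapped, each with its neighbor.

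*Rbpj* (ENSMUSG00000039191, chr5:53466152-53657362, plus strand), the DNA-binding protein through which all 4 receptors act, was the most even member. It had 46.3, 45.7 and 40.8 CPM in wt and 44.1, 40.4 and 42.1 CPM in deficient libraries. The genotypes overlapped, and the log2 fold change came to -0.07 with an SE of 0.083 (edgeR adjusted p = 0.58). It did not pass in any of the 13 alternatives, where the log2 fold change ranged from -0.14 to -0.02.

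None of the 3 tested target and feedback genes passed the test. *Hes1* (ENSMUSG00000022528, chr16:30064384-30067796, plus strand), a transcriptional repressor and common readout of Notch signaling, had 0.432, 0.634 and 0.248 CPM in wt and 0.714, 1.32 and 0.857 CPM in deficient libraries. All deficient libraries were above all wt libraries, from 18 to 86 reads each. The log2 fold change of 1.14 (SE 0.45) did not pass the test across all genes (edgeR adjusted p = 0.112), and the exact two-sided permutation test gave its smallest possible p = 0.1.

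*Nrarp* (ENSMUSG00000078202, chr2:25180758-25183339, plus strand), a target that limits Notch signaling, had 19.5, 13.4 and 23.7 CPM in wt and 14.1, 16.0 and 15.4 CPM in deficient libraries. wt replicate 2 was lower than every deficient library and the other wt libraries were higher. The log2 fold change came to -0.32 with an SE of 0.20 (edgeR adjusted p = 0.296). Without wt replicate 2 it was -0.51 and passed (edgeR adjusted p = 0.0245). With *Notch2* and *Nrarp* included, 5 members passed in the fit without this library, where 24.1% of all genes tested passed.

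*Dtx4* (ENSMUSG00000039982, chr19:12466338-12501454, minus strand), of the Deltex family of ubiquitin ligases that act on Notch receptors, had a wide spread between wt libraries. It had 4.14, 58.6 and 12.3 CPM in wt and 1.72, 5.83 and 5.76 CPM in deficient libraries. wt replicate 2 was far above all others, and wt replicate 1 was below deficient replicates 2 and 3. The log2 fold change of -2.49 (SE 1.09) did not pass the test (edgeR adjusted p = 0.16), and it was -0.89 without wt replicate 2 and -2.99 without wt replicate 1, where it passed (edgeR adjusted p = 0.0474). The markers of granulocyte and monocyte precursors had the same order over the wt libraries, as did the sums of most other marker lists. *Mpo*, the myeloperoxidase gene, was at 471, 5615 and 1165 CPM in wt and 191, 568 and 537 CPM in deficient libraries. Of the 8 granulocyte and monocyte markers 1 passed and fell, *Csf1r*, and their part in the level of *Dtx4* was not tested.

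*Hey1* and *Dtx1* were near or under the detection limit. *Hey1* (ENSMUSG00000040289, chr3:8663359-8667256, minus strand), a repressor related to *Hes1*, had 0.144, 0.133 and 0.0413 CPM in wt and 0.497, 0.398 and 0.134 CPM in deficient libraries, from 3 to 32 reads each. The genotypes overlapped. *Dtx1* (ENSMUSG00000029603, chr5:120680202-120711927, minus strand), a Deltex gene known as a Notch target in lymphocytes, had 0 reads in 5 libraries and 2 reads in hnRNP L deficient replicate 3. Since 3 reads correspond to at most 0.0540 CPM, differences under this level were not detectable. Markers of T, NK and innate lymphoid cells were low as well, at a sum of 3.53 to 10.6 CPM in wt and 2.17 to 2.46 CPM in deficient libraries, and the T cell gene *Cd3e* was at 0 in 4 of 6 libraries.

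The wt spread of *Notch1* was shared by other genes. The 5 genes whose centered log2(CPM + 0.1) profile over the 6 libraries lay closest to that of *Notch1*, by root mean square difference, were *St8sia4* (0.0667), *Coro2a* (0.0762), *Sp110* (0.0791), *Ccng2* (0.0986) and *Ptprc* (0.107). *St8sia4* had 19.9, 73.4 and 34.3 CPM in wt and 7.64, 10.7 and 10.2 CPM in deficient libraries. Among the members the nearest to *Notch1* were *Notch4* (0.65, rank 1386 of the genes tested) and *Dtx4* (0.73, rank 1865), whereas *Notch2* (rank 5977), *Rbpj* (rank 6270) and *Nrarp* (rank 6394) lay further away. *Hes1* (rank 13800) and *Notch3* (rank 13996) were among the genes least like *Notch1*.

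Of 71 other genes of the pathway, listed by role, 57 were tested, 2 rose and 9 fell. These 11 are 19.3% of those tested, next to 19.2% of all genes. The median log2 fold change was -0.16.

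**Figure D4:**
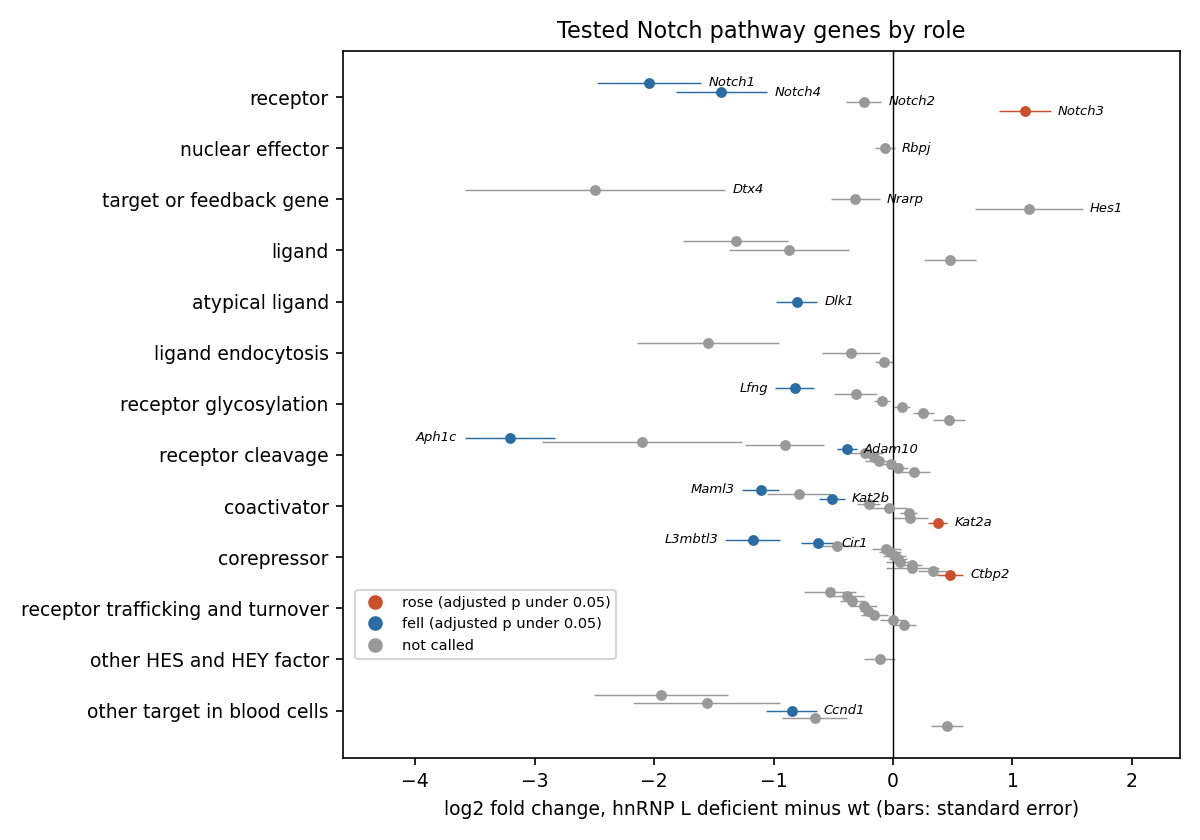
Log2 fold change (hnRNP L deficient minus wt) with its standard error for the tested members and the other tested pathway genes, by role, with genes that passed edgeR's test at an adjusted p under 0.05 in red (rose) or blue (fell) and named. The receptors spread from -2.04 (*Notch1*) to 1.10 (*Notch3*), while no ligand and no gene of receptor trafficking passed.

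Of the 5 ligands, which in tissues are carried by neighboring cells, 3 were tested and none passed. *Dll4* had 0.601 ± 0.197 CPM (SD, n = 3) in wt and 0.241 ± 0.0712 CPM (SD, n = 3) in deficient libraries without overlap (log2 fold change -1.32, edgeR adjusted p = 0.0743). *Jag1* (-0.87, edgeR adjusted p = 0.248) and *Jag2* (0.48, edgeR adjusted p = 0.159) overlapped between genotypes. *Dll1* and *Dll3* were at most 0.0835 CPM on average in either genotype and were not tested. *Dlk1*, an atypical ligand, fell from 22.5 ± 3.62 CPM (SD, n = 3) to 12.9 ± 2.0 CPM (SD, n = 3), a change of -0.81 on the log2 scale (edgeR adjusted p = 0.0248).

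Among 6 genes of receptor glycosylation, *Lfng* (Lunatic Fringe, which adds a sugar that changes the choice of ligand) was the only gene to pass. It had 28.2, 36.2 and 44.9 CPM in wt and 20.1, 21.1 and 20.7 CPM in deficient libraries, a change of -0.82 on the log2 scale (edgeR adjusted p = 0.0222). The related *Mfng* and *Rfng* had log2 fold changes of -0.31 and 0.25 (edgeR adjusted p = 0.246 and 0.0835). Of 10 genes of receptor cleavage 2 fell. *Adam10*, the protease of the ligand-induced cut, went from 330 ± 28.5 CPM (SD, n = 3) to 252 ± 5.87 CPM (SD, n = 3), a change of -0.39 on the log2 scale (edgeR adjusted p = 0.0256). *Aph1c*, of the gamma-secretase complex, was at 1.11 CPM in wt and 0.119 CPM in deficient libraries (log2 fold change -3.21, edgeR adjusted p = 0.0102). It is named after its values were seen and rests on 7 to 80 reads per library. Non-unique reads were left out, so that reads fitting both it and its near-identical copy *Aph1b* are missing and both levels are uncertain. *Psen2*, *Ncstn*, *Aph1a* and *Psenen*, also of gamma-secretase, did not pass, with log2 fold changes from -0.24 (*Psenen*) to 0.18 (*Psen2*).

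In the nucleus 3 of 8 coactivators (37.5%) and 3 of 12 corepressors (25%) passed, beside 19.2% of all genes tested. Counts this small are not read as a result on these roles. *Maml3*, a Mastermind coactivator, fell from 13.5, 16.0 and 17.2 CPM in wt to 6.73, 8.25 and 6.67 CPM in deficient libraries (log2 fold change -1.11, edgeR adjusted p = 0.0138). The related acetyltransferases *Kat2a* and *Kat2b* moved in different directions, with log2 fold changes of 0.37 and -0.51 (edgeR adjusted p = 0.0248 and 0.0246). Of the corepressors, *L3mbtl3* fell (log2 fold change -1.17, edgeR adjusted p = 0.0212), *Cir1* fell (-0.63, edgeR adjusted p = 0.0267) and *Ctbp2* rose (0.48, edgeR adjusted p = 0.0306). None of the 8 trafficking and turnover genes, such as *Numb*, *Itch* and *Fbxw7*, passed, and neither did the 3 tested genes of ligand endocytosis. Of 7 other HES and HEY genes only *Hes6* was tested, with a difference of -0.11 on the log2 scale (edgeR adjusted p = 0.556).

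Of 9 other targets in blood cells 5 were tested and 1 passed. *Ccnd1* (cyclin D1) fell from 18.9, 32.2 and 21.7 CPM in wt to 11.7, 14.1 and 14.5 CPM in deficient libraries, a change of -0.85 on the log2 scale (edgeR adjusted p = 0.0349). *Myc* (log2 fold change 0.45, edgeR adjusted p = 0.0539) and *Gata3* (-1.94, edgeR adjusted p = 0.0516) did not overlap between genotypes and did not pass. *Il2ra*, *Ptcra*, *Bcl11b* and *Cr2*, genes of T and B cells, had too few reads to be tested.

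Counts on exon bins, the non-overlapping pieces into which the exons of a gene are cut, were at hand for 3 wt and 2 hnRNP L deficient libraries (replicates 2 and 3). They were used to ask whether single exons of the members were used more or less than the rest of the gene. Bin levels are CPM of the reads on tested bins and are not on the scale of the gene levels. Of the 232 bins of the members 104 had a mean of at least 10 reads and were tested. With edgeR's diffSpliceDGE 0 passed at an adjusted p under 0.05 and 0 were at an unadjusted p under 0.05. Limma's diffSplice gave 0 and 2, where over all bins 0.123% passed and 2.67% were at an unadjusted p under 0.05. Over all 176996 bins tested with diffSpliceDGE, 0.0288% passed and 1.03% were at an unadjusted p under 0.05. Tested bins numbered 39 for *Notch1*, 34 for *Notch2*, 6 for *Notch3*, 2 for *Notch4*, 11 for *Rbpj*, 3 for *Hes1* and 9 for *Dtx4*. *Nrarp* has a single bin, and *Hey1* and *Dtx1* had none with enough reads.

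**Figure D5:**
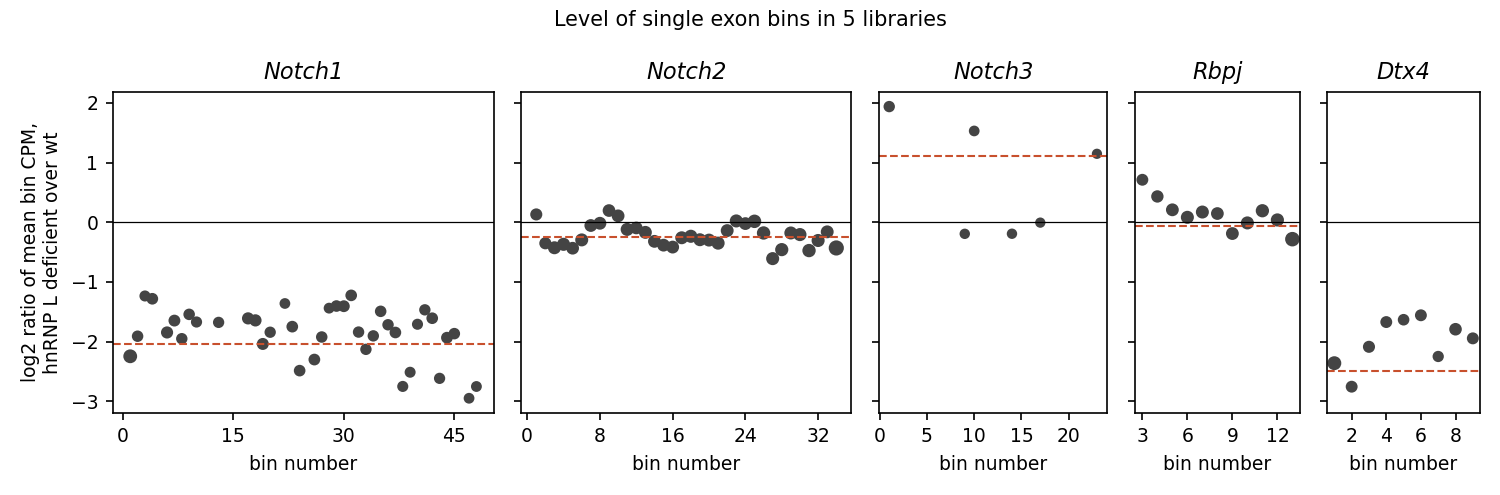
Log2 ratio of the mean CPM of each tested exon bin, hnRNP L deficient (2 libraries) over wt (3 libraries), against its bin number, for 5 members. Larger points have more reads, and the dashed red line is the log2 fold change of the gene counts over 6 libraries. All bins of *Notch1* and *Dtx4* lie below 0, and those of *Notch2*, *Notch3* and *Rbpj* lie on both sides of it.

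The lower level of *Notch1* was seen along the gene. In 28 of its 39 tested bins both deficient libraries were below all wt libraries, and in none were they above. For *Notch2* this held in 2 of 34 tested bins, and the share over all bins was not counted. Bins of a gene come from the same 5 libraries and repeat its difference, so that they are not separate evidence. The 4 bins with at least 100 wt reads kept 21.1% to 32.7% of the wt level. Bin 1, which holds 30.4% of the bin reads of the gene, had the smallest p of its bins (log2 change in use -0.34, unadjusted p = 0.385). Without this bin the summed level of the others still had a log2 ratio of -1.77.

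*Notch3* rested on fewer reads per bin. Bin 1 had 0.109, 0.196 and 0.0960 CPM in wt and 0.621 and 0.405 CPM in deficient libraries, and the log2 change in its use was 0.97 (unadjusted p = 0.108 by diffSpliceDGE and 0.0226 by limma). The summed other 32 bins had 1.5, 1.28 and 1.61 CPM in wt and 2.38 and 2.52 CPM in deficient libraries. They did not overlap either, with a log2 ratio of 0.74, beside 0.89 with all bins.

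The 32 bins of *Notch2* with at least 100 wt reads kept 65.6% to 115% of the wt level, with a median of 84.3%. The smallest p of *Notch2* was that of bin 9 (log2 change in use 0.50, unadjusted p = 0.33). The 9 such bins of *Rbpj* kept 82.2% to 116%, and its smallest p was that of bin 3 (log2 change in use 0.79, unadjusted p = 0.115). The 3 such bins of *Dtx4* kept 19.5% to 28.9%. The smallest p-values were 0.612 for *Notch4* (bin 55), 0.344 for *Hes1* (bin 8) and 0.701 for *Dtx4* (bin 6), all unadjusted.

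Genes on the opposite strand were low where they were counted. 0610009E02Rik, opposite *Notch1*, had 0.180, 0.367 and 0.179 CPM in wt and 0.388, 0.689 and 0.362 CPM in deficient libraries. Gm17276, opposite *Notch3*, had 0.252, 0.30 and 0.440 CPM in wt and 0.264, 0.505 and 0.536 CPM in deficient libraries, and Gm20462, opposite *Notch4*, had 0 in every library. The libraries were made with a stranded kit, but the strand setting of the counting is not given in the sources used here, so that reads of these pairs may not be told apart.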

How the data were processed

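RNA from Lin- cKit+ FL cells of 3 wt and 3 VavCre+ hnRNP L fl/fl embryos was sequenced as paired ends with stranded mRNA libraries. According to the paper and the submitters' processing notes, reads were aligned to GRCm38 with TopHat2 2.0.10, processed with SAMtools and counted on genes with HTSeq. The authors deposited raw counts per gene for 6 libraries and counts per exon bin for the 5 libraries used here. The Ensembl release and the counting options are not given in the sources used here. Reads not on genes (non-unique, ambiguous or outside genes, 46.7% to 53.3% of the reads listed) were left out of the library sizes.

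Gene counts were tested with edgeR 4.0.16 in R 4.3.3 (TMM, default expression filter, quasi-likelihood test with robust estimation, Benjamini-Hochberg adjustment over 14396 genes), and genes were called at an adjusted p under 0.05. Standard errors are the log2 fold change over the square root of F. The diffSpliceDGE test was run on exon bins that averaged 10 or more reads. Both procedures were tested on simulated data, with the same spread between replicates for all genes or bins and no library that stood apart. Such data differ from these libraries, so that the simulation says nothing on how firm the calls are. Alternatives were DESeq2 1.42.0, limma 3.58.1 (voom with sample weights, diffSplice), other scalings and filters, and each library left out in turn. Of 38293 identifiers 94.91% were matched to a symbol in GENCODE, whose GRCm38 annotation gave positions and exon lengths. The exon bins carry numbers and no coordinates. Motifs were counted in RefSeq promoter sequences.

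All members were named. Of other pathway genes, the rule named those with an adjusted p under 0.05 and a mean of at least 1 CPM, and the ligands. *Aph1c*, *Aph1b* and the pathway genes given as not called or not tested were named outside this rule, after their values were seen. Likeness to *Notch1* named the 5 closest genes. The members and lists were chosen with earlier results of these data known. Replicates were numbered in accession order, and embryos were compared without pairing. Each library is a separate embryo.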

Additional observations from a re-analysis of the deposited data

How the results depend on the processing

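The directions of the 8 tested members held in every alternative. Of the 10 members 3 were called, 1 without a filter on low counts (*Notch3*, with edgeR adjusted p = 0.0534 for *Notch1* and 0.0564 for *Notch4*), 6 with limma voom, where *Notch2* (log2 fold change -0.42), *Nrarp* (-0.48) and *Hes1* (1.67) passed as well, and 0 to 5 with a library left out. A filter of at least 1 CPM in 3 libraries removed *Notch4* and *Hes1*. Of the other pathway genes 11 were called, 20 with DESeq2, 23 with limma voom and 0 to 22 with a library left out. Of the 68 tested marker genes of 10 cell types 17 were called, 29 with DESeq2, 29 with limma voom and 0 to 26 with a library left out. Of all genes tested 2759 (19.2%) were called, 4300 (29.9%) with DESeq2, 5288 (36.7%) with limma voom and 2543 (12.2%) without a filter on low counts. The fits without wt replicate 1 or 2 called 4791 (32.4%) and 3527 (24.1%) of the genes tested. The cause of these differences was not tested. The exon bins of the members gave 0 calls in all 7 alternatives, with at most 2 bins at an unadjusted p under 0.05. Of these, the fits without hnRNP L deficient replicate 2 or 3 leave 1 deficient library, assumed to vary like the others, and called only 6 and 3 bins in all, so that they say nothing on stability. Depth limits *Notch4*, *Hes1*, *Hey1* and *Dtx1*, with at most 86 reads per library. No paired analysis was possible because the genotypes share the first part of an embryo number in only 1 pair of libraries, and its meaning is not stated.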
